A study of Mus musculus with 20 samples.

Results

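Voltage-gated ion channel genes encode the pores, and the auxiliary subunits of those pores, that open or close with the membrane potential and so set how neurons fire. The 65 genes described here were chosen by symbol among protein-coding genes (Scn, Cacna, Cacnb, Cacng, Hcn, Kcna, Kcnb, Kcnc, Kcnd, Kcnq and Kcnab followed by a number), with the condition of at least 10 counts in 3 or more of the 20 libraries. They were 65 of 69 genes with such symbols and of 54532 genes in the count table, 19139 of which met the same condition on counts. Kcna7, Kcna10, Cacng1 and Scn4a fell short of it. The data are RNA sequencing counts from the whole hypothalamus of male C57BL/6J mice, with no transgene or deletion named in the labels. Acute Gly-Low (4 libraries) and acute control (5 libraries) came from mice 4 months old after 1 week on either a diet with glycation-lowering compounds (Gly-Low) or the control diet. Old Gly-Low (3 libraries) and old control (4 libraries) came from mice 25 months old after 5 months on those diets, and young control (4 libraries) from mice 3 months old after 1 week on the control diet. In glycation, reactive products of sugar metabolism attach to proteins without an enzyme. Total counts ran from 15848372 to 27399753 per library, and the p-values measure the spread between libraries, which may be technical, since the labels do not say that each library was a separate mouse.

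An action potential starts when sodium channels open, and it ends when they inactivate and voltage-gated potassium channels open. Calcium channels turn the depolarisation into calcium entry, which drives transmitter and peptide release, and HCN channels, which open on hyperpolarisation, carry the inward current that lets many neurons fire in rhythm. In the hypothalamus these currents shape the pacemaking of feeding and clock neurons and the bursts of neurosecretory neurons. The symbol rule also takes in genes that are not gated by voltage themselves. Scn7a encodes a sodium-level sensor, and Cacng2, Cacng3, Cacng4, Cacng5, Cacng7 and Cacng8 encode proteins better known as auxiliary subunits of AMPA-type glutamate receptors.

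All 24 pore-forming genes of the HCN, Kcna, Kcnb, Kcnc, Kcnd and Kcnq families carried, in frame in their longest annotated coding sequence, the codons of the glycine-tyrosine-glycine selectivity filter. The motif searched was GGNTANGGN in the reading frame of the coding strand, and it was found in 6.09% of 21581 protein-coding genes, so it is not particular to channels. A match is a description of letters and not a test of function. The stretch of 45 bases around it is shown for Hcn2, one of the most GC-rich members, because the members are compared by base composition below. The filter codons are in capitals, the sequence is written along the coding strand from a GENCODE transcript of GRCm38, and the stretch lies within 1 exon.
Hcn2 (chr10:79728941-79728985, plus strand): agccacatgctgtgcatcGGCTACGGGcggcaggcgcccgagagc
The GC content of Hcn2 was 71.1% in the stretch, 63.8% in the coding sequence and 65.2% over the transcript. The members' transcripts were long, with a median of 4756.5 bases against 2538 bases for the genes tested in the acute comparison, and their median GC content was 53.8% against 50.1%.

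The most abundant members per length were auxiliary subunits. In young control, Cacna2d1 (an alpha2delta subunit that brings calcium channels to the surface) stood highest of the 65 at 81.0 ± 3.39 CPM per kilobase of transcript (SD, n = 4), before the sodium channel beta subunit gene Scn2b at 59.2 ± 7.26. The pore gene Scn2a had 40.1 ± 0.937 (rank 4), the beta subunit genes Scn3b and Cacnb2 32.6 ± 2.30 and 31.4 ± 1.08, and the potassium pore gene Kcna2 29.9 ± 17.3 CPM per kilobase. The order rests on the length used: per merged exon length Cacna2d1 had rank 4 and Cacnb2 rank 25 of 65. Of the neighbours named in this order, Scn3b and Cacnb2, and Cacnb2 and Kcna2, did not differ beyond their spread. At the other end, Cacna1f, Kcnq1, Scn10a, Cacna1s and Cacng6 were scarce, with at most 40 counts in any library.

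**Figure D1:**
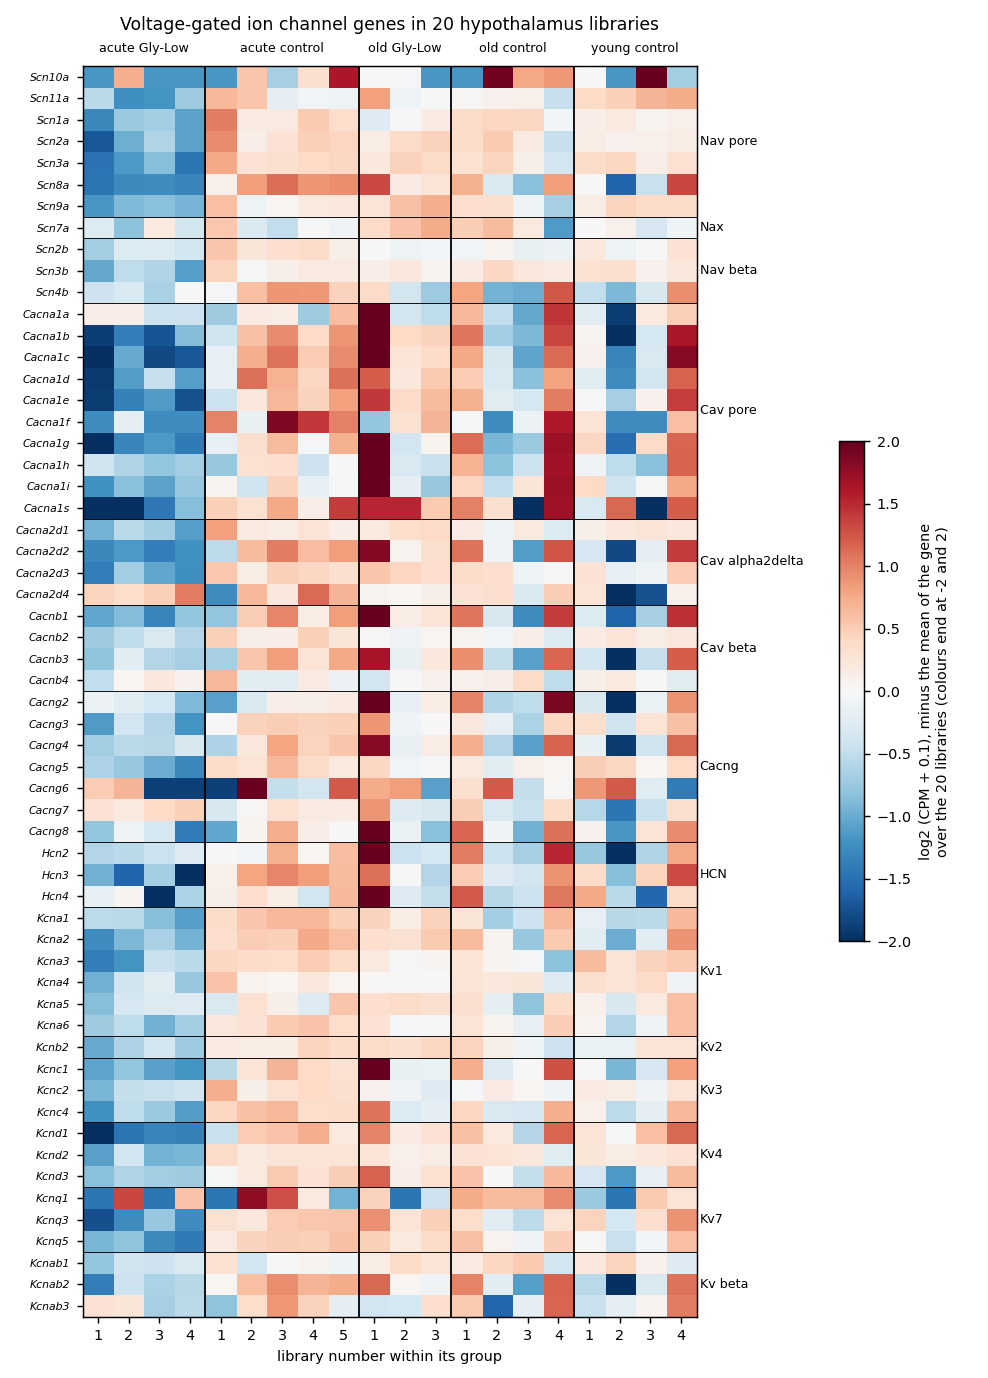
Level of 58 channel genes in each of the 20 libraries, as log2 (CPM + 0.1) minus the gene's own mean over all libraries. Rows are genes by family, columns are libraries by group, and colours end at -2 and 2. Most rows are blue in the 4 acute Gly-Low libraries, and within the other groups old Gly-Low 1, old control 4 and young control 4 are red and young control 2 is blue for many of the same rows.

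The acute comparison asks what 1 week of Gly-Low changed in mice 4 months old. Most channel genes were lower in acute Gly-Low: 48 of 61 members tested fell and 0 rose by edgeR's quasi-likelihood test at an adjusted p under 0.05, against 30.5% of all 17161 genes tested lower and 27.8% higher. The members' median log2 fold change was −1.09, against −0.07 over all genes tested. At an unadjusted p under 0.05 the only member on the higher side was Cacng7, which missed the adjusted threshold here but passed it in several other fits, DESeq2 among them. In 43 of the 61 every acute Gly-Low library lay below every acute control library, which held for 24.5% of all genes, and in 0 of the 61 did every one lie above, against 22.5% of all genes. Kcnq1, Cacna1f, Cacng6 and Scn10a had too few counts to be tested. Cacna1s, counted among the 48, could pass the count filter only through acute control, where it was higher. Together the members took 0.112% to 0.177% of the counts of the acute Gly-Low libraries, against 0.362% to 0.408% in acute control.

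The libraries of the acute arm also differed in make-up. Mitochondrial transcripts took 17.0% to 23.3% of counts in acute Gly-Low, against 5.35% to 9.11% in acute control, and the length slope (the change in log2 level per doubling of transcript length) was −0.54 to −0.28 against 0.15 to 0.29. In the ageing arm they ran from 4.94% to 17.2% and from −0.35 to 0.37. Both on the control diet, young control 2 (17.2%, −0.35) lay within the acute Gly-Low range on both measures and old control 3 (15.8%, −0.26) came near it. The members' median deviation from the mean of 20 libraries was −0.44 in young control 2 and −0.33 in old control 3, against −0.92 to −0.53 in acute Gly-Low. Summed neuron markers were 4950 to 5613 CPM in acute Gly-Low, against 6818 to 8242 CPM in acute control, with 8 of 14 such markers lower and 1 higher. Endothelial markers summed to 53.3 to 65.2 CPM in acute Gly-Low, against 96.3 to 160 CPM in acute control, with 5 of 6 lower and 0 higher. Markers of oligodendrocyte precursors summed to 55.6 to 81.2 CPM in acute Gly-Low, against 138 to 187 CPM in acute control, with 2 of 5 lower and 1 higher. Astrocyte markers summed to 3744 to 4543 against 4452 to 5547 CPM, with 4 of 8 lower and 1 higher. Other lists went the other way. Microglia markers summed to 345 to 409 against 304 to 362 CPM, with 4 of 8 higher and 2 lower. Oligodendrocyte markers summed to 7598 to 10806 against 5343 to 9796 CPM, with 3 of 8 higher and 1 lower. Pituitary markers summed to 80.2 to 306 CPM in acute Gly-Low, against 55.8 to 65102 CPM in acute control, where acute controls 2, 3 and 5 were highest. Hypothalamus markers were present in all libraries, at 1608 to 2763 CPM in acute Gly-Low, against 584 to 1476 CPM in acute control. Of 14 such markers 7 were higher and 3 lower. The part of these differences in the members' result was not tested. In bulk tissue, fewer cells of a type, neurons or others, and less channel RNA per cell cannot be told apart. Without acute controls 2, 3 and 5 together, 40 of 61 members were lower and 0 higher, against 21.1% and 19.7% of 17586 genes.

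Every tested pore gene of the neuronal sodium channels was lower in acute Gly-Low, 7 of 7, with a median log2 fold change of −1.48. Scn8a (ENSMUSG00000023033, chromosome 15, 100869858 to 101045938), the main channel of mature axon initial segments and nodes, had 12.8, 14.5, 14.9 and 14.0 CPM in acute Gly-Low, against 38.0, 63.1, 77.0, 65.1 and 67.5 CPM in acute control. The groups did not overlap, and the acute Gly-Low libraries hardly varied while acute control 1 stood below the other controls. The log2 fold change was −2.09 ± 0.18 (SE) with an adjusted p of 3.49e-07, the smallest of all members. Scn2a (ENSMUSG00000075318, chromosome 2, 65620771 to 65767447), the most abundant sodium pore, had 99.2, 163, 210 and 152 CPM in acute Gly-Low, against 618, 351, 394, 446 and 432 CPM in acute control. Here acute control 1 was the highest control, the opposite of Scn8a, and the fold change was −1.48 ± 0.22 (adjusted p = 4.29e-05).

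The other sodium pore genes moved likewise. Scn3a, which is best known from the developing brain, had 38.8, 48.6, 59.5 and 38.9 CPM in acute Gly-Low, against 182, 131, 135, 142 and 144 CPM in acute control (−1.62 ± 0.16, adjusted p = 1.40e-06). The groups did not overlap, with acute control 1 far above the other controls. Scn1a, a channel of inhibitory interneurons, was at −1.38 ± 0.20, and Scn9a, known from sensory neurons and also present in the hypothalamus, at −1.12 ± 0.16. Scn11a (−1.18 ± 0.42) was scarce, at most 2.06 CPM in any acute library. Scn7a, the sodium-level sensor, did not pass (−0.21 ± 0.23, adjusted p = 0.438). All 4 beta subunit genes, which anchor the pore and tune its gating, fell, with a median of −0.78, among them Scn3b (−0.94 ± 0.16), Scn4b (−0.88 ± 0.23) and Scn2b (−0.68 ± 0.14). No test of pores against beta subunits was run.

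Of the calcium channel pore genes 7 of 9 tested fell, with a median of −1.75. Cacna1b, the N-type channel of presynaptic terminals, had 5.67, 8.18, 6.32 and 11.6 CPM in acute Gly-Low, against 16.0, 31.8, 40.8, 28.1 and 39.2 CPM in acute control. The groups did not overlap, and the fold change was −1.92 ± 0.27 (adjusted p = 2.73e-05). The L-type genes Cacna1c (−2.25 ± 0.28) and Cacna1d (−1.73 ± 0.29), which couple calcium entry to secretion and transcription, fell too. So did the R-type gene Cacna1e (−1.86 ± 0.23) and the T-type genes Cacna1g (−1.75 ± 0.27) and Cacna1i (−0.94 ± 0.23), whose low-threshold current supports burst firing. Cacna1s, the skeletal muscle channel, was called lower on 0, 0, 2 and 3 counts in acute Gly-Low, against 13, 14, 19, 13 and 30 counts in acute control. With so few counts in acute Gly-Low, it could pass the count filter only through acute control, where it was higher. A gene that enters the test in this way can hardly be called other than lower. Cacna1s is still counted among the 7.

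The P/Q-type gene Cacna1a and the T-type gene Cacna1h did not pass. Cacna1a (ENSMUSG00000034656, chromosome 8, 84388440 to 84640246), which with Cacna1b triggers transmitter release, had 5.72, 5.76, 3.86 and 3.89 CPM in acute Gly-Low, against 3.14, 5.87, 5.78, 3.14 and 8.02 CPM in acute control. The groups overlapped fully (−0.06 ± 0.30, adjusted p = 0.875). Cacna1h was at −0.54 ± 0.30 (adjusted p = 0.135).

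Among the auxiliary calcium channel subunits the alpha2delta genes Cacna2d1, Cacna2d2 and Cacna2d3 fell. Cacna2d1 (ENSMUSG00000040118, chromosome 5, 15934691 to 16374511), a target of gabapentin, had 142, 188, 168 and 127 CPM in acute Gly-Low, against 481, 308, 302, 328 and 301 CPM in acute control (−1.09 ± 0.18, adjusted p = 0.000123). The groups did not overlap and acute control 1 stood apart above the rest. Cacna2d2 was at −1.81 ± 0.24 and Cacna2d3 at −1.40 ± 0.16. Cacna2d4, known from the retina, had 0.18 ± 0.38 and did not pass (adjusted p = 0.711).

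Of the 4 cytoplasmic beta subunit genes, which traffic the calcium pore, Cacnb1 (−1.40 ± 0.29), Cacnb3 (−0.94 ± 0.25) and Cacnb2 (−0.78 ± 0.14) fell. Cacnb4 had 92.1, 133, 149 and 137 CPM in acute Gly-Low, against 204, 111, 111, 145 and 119 CPM in acute control, overlapping groups with a fold change of −0.07 ± 0.20 (adjusted p = 0.77). Of 6 Cacng genes tested, Cacng5 (−1.23 ± 0.17), Cacng3 (−1.14 ± 0.21) and Cacng4 (−0.83 ± 0.23) fell. Cacng7 had 50.9, 47.8, 54.7 and 58.1 CPM in acute Gly-Low, against 33.2, 42.3, 51.6, 47.1 and 46.5 CPM in acute control. It had the highest fold change of the members, 0.31 ± 0.13, with an adjusted p of 0.0563. It passed as higher by DESeq2 (adjusted p = 0.026), with the GC offset (4.12e-05), in edgeR with DESeq2's size factors or a filter on CPM, without acute control 3, and in the fits with the length and GC offset and with the length slope described below. Cacng8 (−0.61 ± 0.34) and Cacng2 (−0.20 ± 0.27) did not pass in the edgeR test.

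Of the 4 HCN pacemaker genes 3 fell. Hcn2 (ENSMUSG00000020331, chromosome 10, 79716634 to 79736108), a form that responds strongly to cyclic AMP, had 7.87, 8.18, 8.79 and 9.96 CPM in acute Gly-Low, against 11.9, 11.5, 19.5, 12.3 and 18.2 CPM in acute control (−0.71 ± 0.20, adjusted p = 0.00696). The groups did not overlap. Hcn3 was at −1.95 ± 0.31. Hcn4, the main form of the cardiac pacemaker, was at most 2.51 CPM in the acute arm and did not pass (−0.79 ± 0.52, adjusted p = 0.209).

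The Kcnq genes, whose heteromers carry the M current that muscarinic receptors shut off, fell in 3 of 4 tested. Kcnq3 (ENSMUSG00000056258, chromosome 15, 65986387 to 66286642) had 14.3, 20.2, 28.8 and 20.5 CPM in acute Gly-Low, against 60.1, 56.3, 69.0, 70.3 and 71.6 CPM in acute control (−1.60 ± 0.17, adjusted p = 2.94e-06). The groups did not overlap. Kcnq5 was at −1.49 ± 0.17.

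The classical delayed-rectifier and A-type genes also fell, 5 of 6 Kcna, 2 of 2 Kcnb, 3 of 4 Kcnc and 3 of 3 Kcnd genes. Kcna2 (ENSMUSG00000040724, chromosome 3, 107101146 to 107115005), which clusters beside nodes of Ranvier, had 53.7, 68.7, 82.0 and 66.9 CPM in acute Gly-Low, against 162, 180, 179, 218 and 194 CPM in acute control (−1.41 ± 0.14, adjusted p = 1.41e-06). Its usual partners Kcna1 (−1.24 ± 0.17) and Kcna6 (−1.06 ± 0.13) fell too. The fast-spiking gene Kcnc1 was at −1.25 ± 0.20, its relative Kcnc4 at −1.30 ± 0.16 and the dendritic A-type gene Kcnd2 at −1.04 ± 0.15. Kcna3, Kcna4, Kcnb2, Kcnc2, Kcnd1 and Kcnd3 lay between −1.93 (Kcnd1) and −0.71 (Kcna4), and all 6 passed. Kcna5 did not pass (−0.48 ± 0.20, adjusted p = 0.0518). Of the cytoplasmic Kv beta genes, Kcnab2 (−1.28 ± 0.20) and Kcnab1 (−0.41 ± 0.16, adjusted p = 0.0345) fell, and Kcnab3 did not pass (−0.30 ± 0.32).

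**Figure D2:**
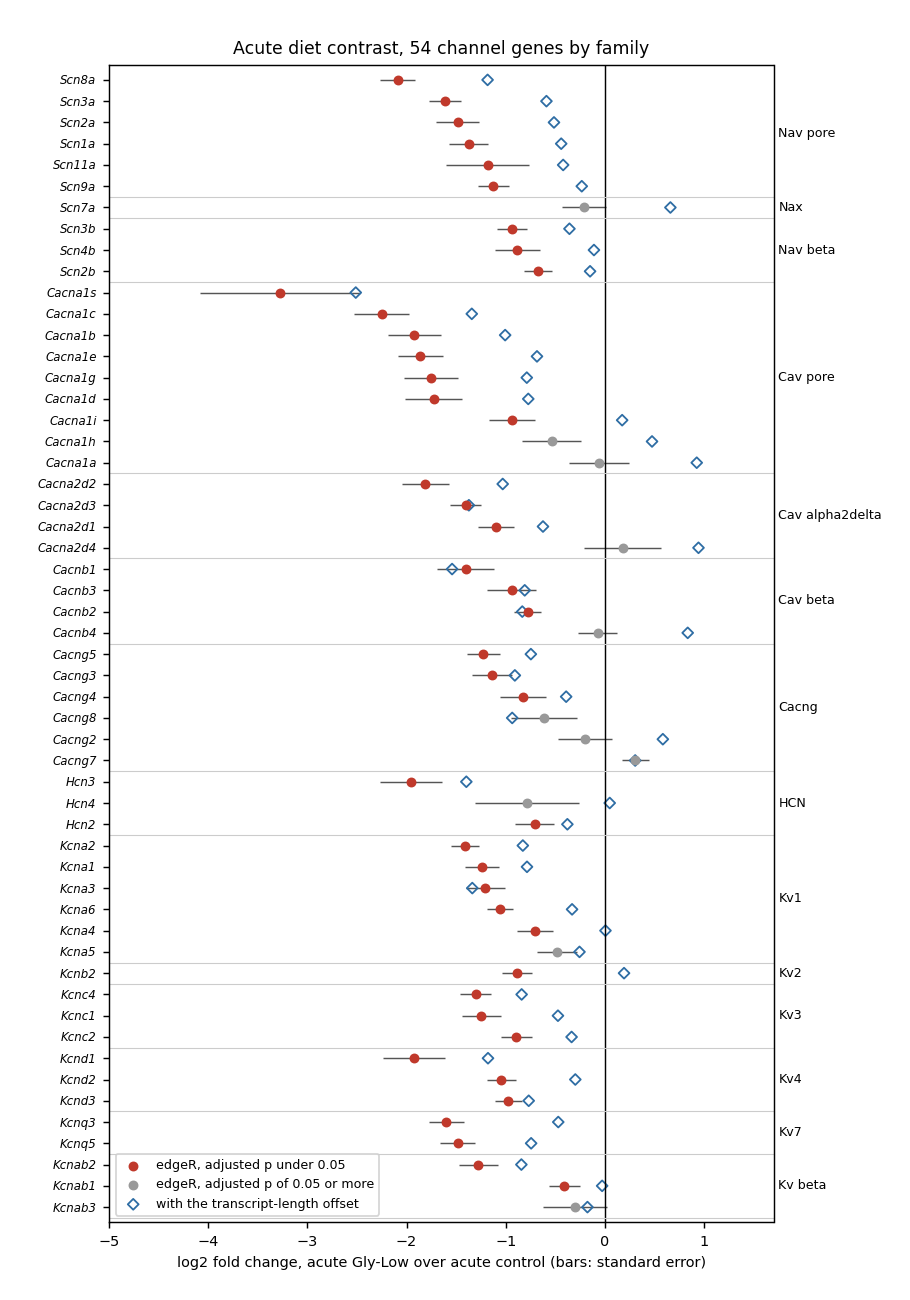
Log2 fold change of acute Gly-Low over acute control for 54 members tested, by family. Filled points are edgeR estimates with standard errors (red where the adjusted p was under 0.05, grey otherwise), and open diamonds are the same contrast with the transcript-length offset. All red points, 43 of them, lie left of zero, and the diamonds lie right of their points in most rows, past zero in 11.

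Genes outside the symbol rule that share the work of these channels gave mixed counts. Of all 17161 genes tested, 30.5% fell and 27.8% rose. Of 15 other voltage-gated potassium genes tested, 10 fell and 0 rose, among them Kcnf1, a silent subunit (−1.11 ± 0.16), Kcnh1 (−1.56 ± 0.22) and Kcnh2 (−1.66 ± 0.28). Of 19 channel partners 8 fell and 1 rose. Dpp6, which speeds Kcnd channels, was at −2.31 ± 0.16, Cntnap2, which clusters Kcna channels on axons, at −1.15 ± 0.12, and Unc79, a part of the sodium leak channel complex, at −2.25 ± 0.26. Fgf12, which binds the tail of sodium channels, rose (0.55 ± 0.19, adjusted p = 0.0193).

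Of 10 calcium- and sodium-activated potassium genes 3 fell, Kcnma1 (−1.51 ± 0.15), Kcnn3 (−1.15 ± 0.16) and Kcnt1 (−1.45 ± 0.30). That is near the share of all genes that fell, 30.5%, and the median of the 10 was −0.18. Of 19 inward rectifier and two-pore genes 10 fell and 1 rose. Kcnk9 was at −1.75 ± 0.15, the astrocyte channel Kcnj10 at −1.36 ± 0.15 and Kcnk10 at −1.22 ± 0.26, while Kcnj16, which pairs with Kcnj10 in glia, rose (0.53 ± 0.18). These lists were compared with no other list.

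The size of the members' difference followed in part the length of their transcripts, as for genes in general. Among the longest genes (the last of 5 equal bins, from 4221 bases) 28 of 35 members fell against 60.8% of all genes, and in the next bin 11 of 12 fell against 44.2%. In bin 3 it was 6 of 10 against 29.1%, and in bin 2 it was 3 of 4 against 14.2%. The share of members that fell thus did not rise steadily with length, as that of all genes did. The members' median log2 fold change was −0.91, −0.86, −1.02 and −1.23 in bins 2 to 5. No member was in the bin of shortest genes. Across the 61 members the log2 fold change and log2 transcript length had a Pearson correlation of −0.29, against −0.55 across all genes, points that share libraries and are not independent.

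**Figure D3:**
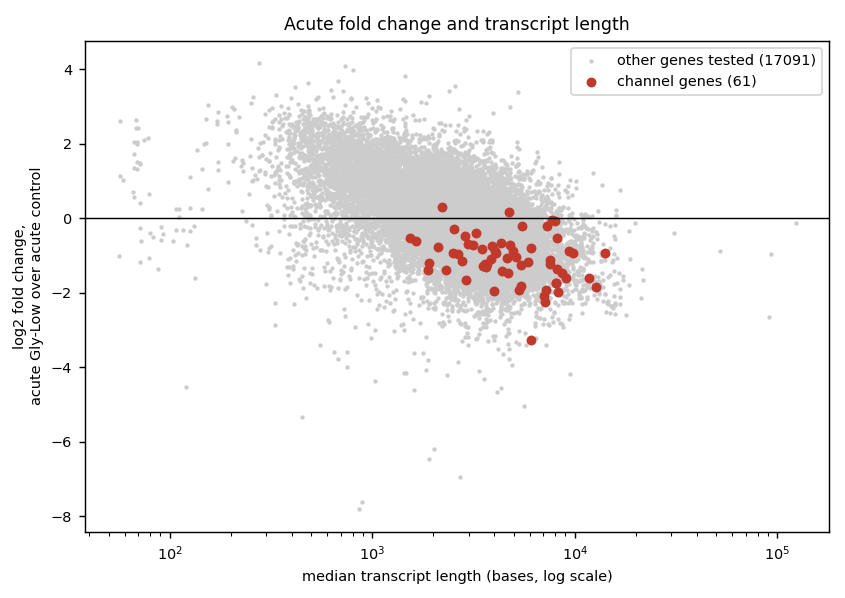
Log2 fold change of acute Gly-Low over acute control against median transcript length on a log axis, for the channel genes (red) and all other genes tested with a length (grey). The grey cloud slopes down with length, and the red points lie mostly in its long, lower part, with a median of −1.09.

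With a per-library offset for the trend over transcript length, 31 members were lower and 4 higher, with a median of −0.47, against 23.3% lower and 24.2% higher of all genes. The 4 were Cacna1a (0.93), Cacna2d4 (0.94), Cacnb4 (0.83) and Scn7a (0.66). With an offset for length and GC content together, 31 were lower and 5 higher, with a median of −0.41, against 22.0% and 23.2% of all genes. The 5 were Cacna1a (1.60), Cacna2d4 (1.29), Cacna1h (1.14), Cacng2 (0.77) and Cacng7 (0.73). When all 20 libraries were fitted with each library's length slope as covariate, 15 were lower and 9 higher, with a median of −0.01, against 9.33% and 12.1% of all genes, whose median moved to 0.17.

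Which members passed depended on how the length difference was handled. Of the 48, 30 were also lower with the length offset and 23 with both offsets, among them Scn8a (−1.18 and −0.83), Kcna2 (−0.83 and −0.80), Hcn3 (−1.40 and −0.87) and Cacna1c (−1.34 and −0.89). With the covariate as well, 7 members were lower throughout: Scn3a, Cacna2d1, Cacna2d3, Cacnb2, Cacng5, Kcna3 and Kcnq5. The length slope did not overlap between the acute groups. A diet effect that follows length and a library difference thus cannot be told apart by these fits.

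**Figure D4:**
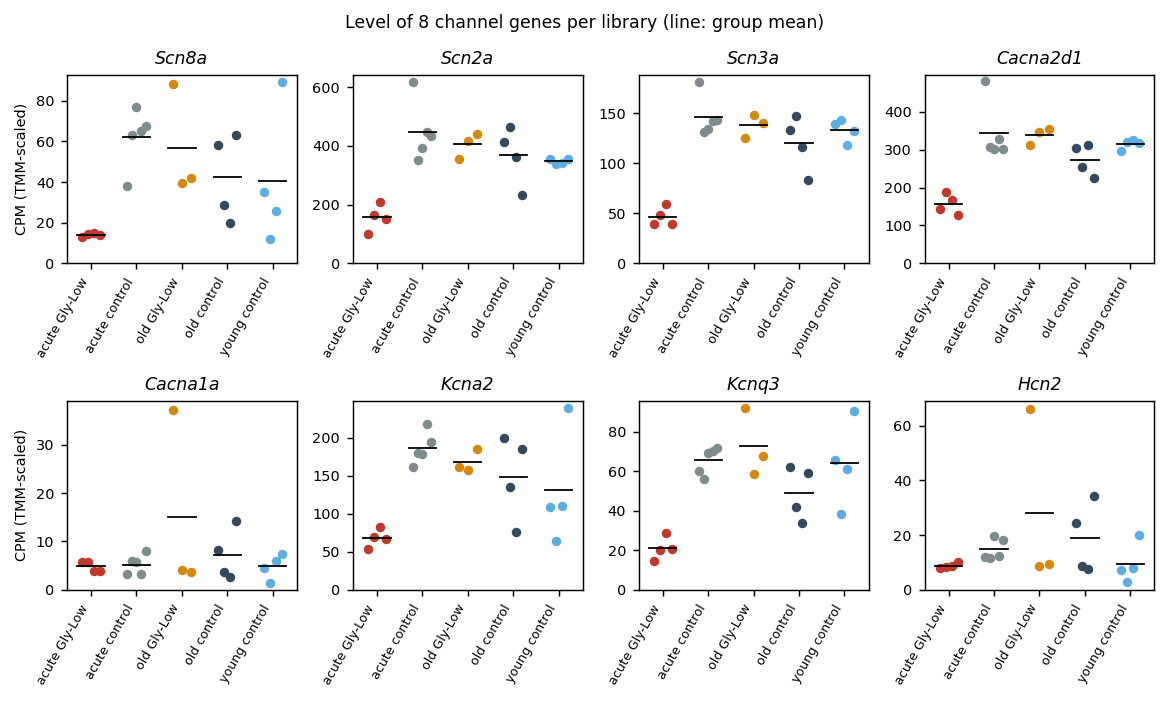
Level in CPM of 8 channel genes in every library, with acute Gly-Low left of acute control and old Gly-Low left of old control and young control, and a line at the group mean. Scn8a, Scn2a, Scn3a, Cacna2d1, Kcna2, Kcnq3 and Hcn2 are below all acute controls in the 4 acute Gly-Low libraries, Cacna1a is not, and old Gly-Low 1 stands far above its group for Cacna1a (37.3 CPM) and Hcn2 (66.0 CPM).

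In the ageing arm many members differed widely between libraries of the same group, in part along base composition. The length slope and the mitochondrial share varied over the same libraries, and the part of each was not tested. Kcna2, at 47.7% GC, ran from 64.3 to 239 CPM within young control. Old Gly-Low 1 had the highest level of the 11 libraries for 28 of 65 members and young control 2 the lowest for 29. The same was not counted over all genes, so these counts are not shown to be particular to the members. Hcn2 had 66.0, 8.78 and 9.28 CPM in old Gly-Low, against 24.5, 8.79, 7.51 and 34.2 CPM in old control and 7.0, 2.77, 7.84 and 20.1 CPM in young control. Cacna1a had 37.3, 4.02 and 3.66 CPM in old Gly-Low, against 8.25, 3.67, 2.53 and 14.2 CPM in old control and 4.50, 1.33, 6.01 and 7.34 CPM in young control. Old Gly-Low 1, old control 4 and young control 4 were the highest of their groups for both genes. On the scale of log2 (CPM + 0.5), old Gly-Low 1 was compared with the mean of old Gly-Low 2 and 3. Cacna1g was 8.92-fold, Cacna1a 8.73-fold, Hcn4 8.72-fold and Cacna1h 8.30-fold higher in old Gly-Low 1. The added 0.5 lowers the fold of scarce genes such as Hcn4, so these are not ratios of the CPM and their order is not firm.

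Several GC-poor members did not follow, although others did, among them Cacng2, at 51.2% GC (6.40-fold higher in old Gly-Low 1), and Cacna1c, at 53.6% (3.32-fold). Some GC-rich members did not follow either, such as Kcna3, at 60.3% GC (1.14-fold), and Kcnab3, at 55.2% (0.79-fold). Scn3b, a beta subunit gene, had 123, 131 and 117 CPM in old Gly-Low, against 127, 150, 132 and 126 CPM in old control and 139, 140, 120 and 132 CPM in young control. Scn2a had 356, 418 and 442 CPM in old Gly-Low, against 415, 463, 364 and 232 CPM in old control and 357, 340, 343 and 354 CPM in young control. Old control 4, high for Hcn2 and Cacna1a, was the lowest for Scn2a. The median of the 33 GC-rich members, as a deviation from the mean of 20 libraries, was 1.61 in old Gly-Low 1 and −0.14 and −0.13 in old Gly-Low 2 and 3, while that of the 32 GC-poor members was 0.27, 0.15 and 0.26. Across 62 members the log2 difference of old Gly-Low 1 from the other 2 and the GC content of the transcript had a Pearson correlation of 0.73, against 0.52 across 18264 genes, points that share libraries and base composition, and the gradient was thus present beyond the channels. Acute control 1 differed likewise, with a GC-rich median of −0.30, against 0.23 to 0.58 in the other acute controls.

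**Figure D5:**
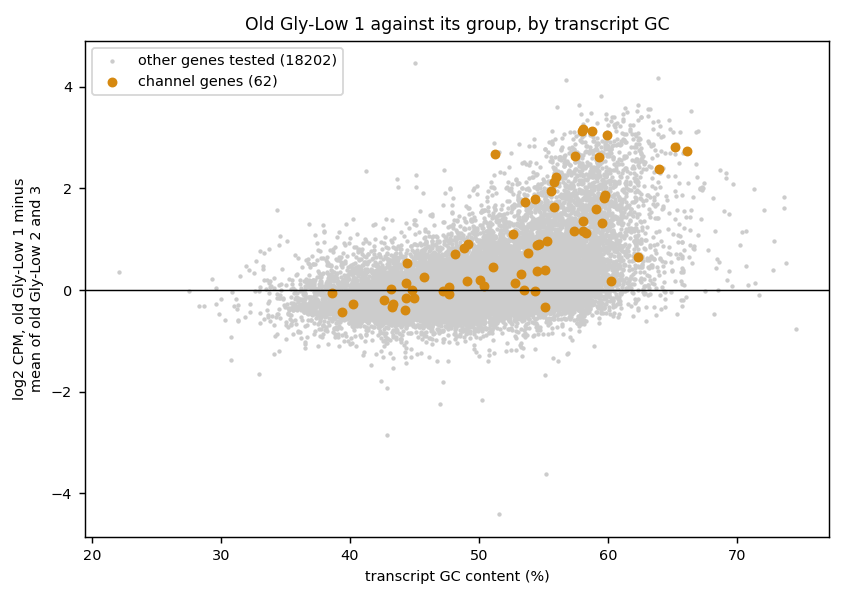
Log2 (CPM + 0.5) of old Gly-Low 1 minus the mean of old Gly-Low 2 and 3, against transcript GC content, for the channel genes (orange) and all other genes tested in the ageing arm (grey). The orange points rise with GC content, up to 3.16 for Cacna1g, along the rising cloud of other genes (r = 0.73 for channel genes and 0.52 for all genes).

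The diet comparison in old mice asks what 5 months of Gly-Low changed at 25 months of age. No member passed: 0 of 62 by edgeR, against 0% of 18281 genes, with 1 at an unadjusted p under 0.05, and 0 by DESeq2. With the replicate number as a block 0 passed as well, but 14 members (and 3215 of all genes) had an unadjusted p under 0.05, the smallest adjusted p among members was 0.271 and their median log2 fold change was 0.41. Without the block, the smallest p values belonged to Scn9a, Kcnq3 and Cacna2d1. Scn9a had 84.6, 106 and 117 CPM in old Gly-Low, against 88.9, 88.1, 66.7 and 44.6 CPM in old control (0.52 ± 0.23, adjusted p = 0.953). Cacna2d1 had 313, 348 and 355 CPM, against 305, 255, 311 and 225 CPM (0.32 ± 0.15, adjusted p = 0.953). It was the only member with every old Gly-Low library above every old control, which held for 3.16% of all genes. Kcnq3 was at 0.59 ± 0.28 (adjusted p = 0.953).

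The members' median log2 fold change in the old diet comparison was 0.34, against 0.03 over all genes, and 1 library decided its sign. Without old Gly-Low 1 it was −0.11, against −0.07 over all genes. By family the median was highest for the calcium pore genes, 0.82, and lowest for the sodium beta subunits, −0.11.

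The age comparison sets old control against young control. Again 0 of 62 members passed by edgeR, against 0.0328% of genes (6 of 18281), with 1 at an unadjusted p under 0.05, and 0 by DESeq2. That one was Kcna3, the channel known from T cells and microglia as well as neurons, with 18.7, 15.9, 15.0 and 8.64 CPM in old control, against 23.7, 18.4, 21.2 and 22.1 CPM in young control (−0.58 ± 0.23, adjusted p = 0.466). Only old control 1 reached into the young range. Scn11a had 1.29, 1.35, 1.36 and 0.892 CPM in old control, against 1.69, 1.79, 2.07 and 2.17 CPM in young control (−0.68 ± 0.32, adjusted p = 0.553). It and Cacnb2 (−0.25 ± 0.13) were the 2 members with every old control below every young control, which held for 2.86% of all genes. Cacng5 was at −0.34 ± 0.17 (adjusted p = 0.604), and Hcn2, with the highest value, at 0.96 ± 0.76 (adjusted p = 0.768).

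The diet effect was also compared between the arms, as the acute diet log2 fold change minus the old diet one in a single fit on all 20 libraries. For 36 of 65 members it was lower in the acute arm and for 0 higher, against 16.8% lower and 19.2% higher of 19061 genes. At an unadjusted p under 0.05 there were 41 members, and DESeq2 gave 39 lower and 0 higher, against 18.8% and 21.4% of genes. The difference was −1.82 ± 0.25 for Scn3a (adjusted p = 4.34e-05), −1.70 ± 0.24 for Cacna2d3, −2.17 ± 0.35 for Kcnq3, −1.41 ± 0.23 for Cacna2d1, −1.64 ± 0.28 for Scn9a and −1.32 ± 0.24 for Cacng5. It was −1.08 ± 0.20 for Kcnd2, −1.56 ± 0.30 for Kcnq5 and −1.62 ± 0.32 for Scn2a. These 9, with adjusted p between 4.34e-05 and 0.000651, cover sodium, calcium and potassium genes, and no Kcnab gene passed. The arms differ in age and in the time on the diet together, so these cannot be told apart. Without old Gly-Low 1 26 members were lower, against 11.2% of genes, and with the transcript-length offset 12, against 10.2%. With the length slope as a covariate 11 were lower and 5 higher, against 4.57% and 5.55% of genes.

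Counts of some members may hold reads of a neighbour, or lack reads in bases shared with it, since the libraries did not keep strand. How such reads were counted was not examined. Exons of other genes overlap those of 21 members, with Kcna6 (2355 bases shared with an antisense gene), Cacnb4 (1433 bases), Cacna1s (1309 bases), Cacnb2 (968 bases) and Hcn3 (711 bases, with Pklr) among those sharing most.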

How the data were processed

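Poly-A, non-directional RNA-seq libraries of mouse hypothalamus were analysed, 20 in 5 groups. Reads were aligned with HISAT2 2.0.5 to GRCm38 and counted with featureCounts 1.5.0-p3, and DESeq2 1.20.0 is also named, per the submitters' processing notes. The authors deposited raw counts per gene, which were used as deposited. Of 54532 genes, 54495 matched the GENCODE annotation, and the 37 others took at most 0.0198% of a library. The members and gene lists were chosen with earlier results of these data known.

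Tests used edgeR 4.0.16 in R 4.3.3: TMM scaling, filterByExpr by group, quasi-likelihood F test, Benjamini-Hochberg adjustment over all genes tested, threshold 0.05. The acute comparison was fitted on its 9 libraries, age and old diet on the 11 of the ageing arm, and the difference of diet effects on all 20. CPM are counts scaled to the library total after TMM adjustment over all 20 libraries. Folds of old Gly-Low 1 over its group and deviations from the mean of 20 libraries were taken on log2 (CPM + 0.5). Transcript lengths and GC content are medians over a gene's protein-coding transcripts. Alternatives were DESeq2 1.42.0, its size factors, other filters, offsets from each library's trend over length or GC content in 40 bins, the length slope as a covariate, the replicate number as a block, and leaving out libraries. The scripts were tested on simulated data.

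The rule for named genes took a fixed set from most families, up to 10 passing members per comparison and direction with the smallest p (3 where fewer passed), and up to 3 passing genes per partner list and direction. Other members are named to account for them. Of all members, 7 enter every count but are not reported singly here, which leaves 9 by p in the acute comparison and 9 in the difference. The replicate numbers were treated as pairs in an alternative fit of the acute, age and old diet comparisons, without a statement of pairing in the labels. Same-numbered libraries of old Gly-Low and old control deviated together (r = 0.447, 0.297 and 0.276), each above 0.1. The pairing is doubtful: for 0 of the 3 was the same-numbered control the closest match, and the count table numbers old Gly-Low 1, 2 and 3 as 1, 4 and 5. Those of the acute groups (−0.026 to 0.00893) and of the age comparison (−0.0533 to 0.626) were not each above 0.1, and the block was fitted there as well.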

Additional observations from a re-analysis of the deposited data

Results flagged for a closer look

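Of 172 groups of 4 or 5 libraries examined for a value far from the others, 6 held one, where chance gives about 1 in 20. In acute control, library 1 stood above the rest for Cacna2d1 (480.7 CPM) and Scn3a (181.6 CPM), and library 2 had the lowest share of counts in the members (0.3625%). In old control, library 4 stood below the rest for Kcnd2 (73.49 CPM), Scn1a (168.1 CPM) and Scn11a (0.8915 CPM).

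The diet effect differed between the acute and the old arm for 36 of 65 members, tested as an interaction by edgeR. All 36 were lower in the acute arm, against 16.8% lower and 19.2% higher of 19061 genes. The differences (acute minus old, log2) were −1.82 for Scn3a, −1.70 for Cacna2d3, −2.17 for Kcnq3, −1.41 for Cacna2d1, −1.64 for Scn9a, −1.32 for Cacng5, −1.08 for Kcnd2, −1.56 for Kcnq5 and −1.62 for Scn2a. With the transcript-length offset 12 members were lower, against 10.2% of genes. With the length slope as covariate 11 were lower and 5 higher, against 4.57% and 5.55% of genes.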

How the results depend on the processing

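Acute calls of lower members stayed at 40 to 50 when libraries were left out singly (46 to 50) or acute controls 2, 3 and 5 together (40), and at 46 with the replicate block. They were 31 with the length offset, 15 with the length slope as covariate and 31 with the length and GC offset. Higher members numbered 4, 9 and 5 in those fits, and 1 with DESeq2, with its size factors, with the CPM filter and with the GC offset. Leaving out 1 library gave 0 to 1. The covariate gave 1 lower member with age. Calls of the difference were 12, 16 and 13 in the length offset, covariate and length and GC fits, and 26 to 41 without 1 library. The replicate block changed no call of the old diet or age. The cause was not tested for any of these.

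Above zero in the acute comparison were 12 members with the length offset, 32 with the covariate and 19 with the length and GC offset, against 2 in the fit reported. Among the members in the rule for named genes only, these changed sign. With the covariate they were Kcna2 0.0801, Scn8a 0.18, Cacna1d 0.44, Kcnc1 0.45, Cacna1i 0.58, Cacna1c 0.60, Kcnab3 0.64, Cacna2d2 1.03, Scn4b 1.05, Cacna1b 1.12, Hcn4 1.15, Cacna1g 1.28, Kcnab2 1.39, Cacna1h 1.80, Cacng8 1.91, Hcn2 2.09 and Cacna1a 2.60. With the length and GC offset they were Scn2b 0.0224, Kcnc1 0.024, Hcn2 0.0559, Cacnb4 0.15, Kcnab3 0.19, Scn4b 0.27, Hcn4 0.61, Cacna1i 0.77, Cacna1h 1.14 and Cacna1a 1.60. With the length offset they were Hcn4 0.048, Cacna1i 0.17, Cacna1h 0.47, Cacnb4 0.83 and Cacna1a 0.93. With the GC offset they were Kcnab3 0.0778 and Cacna1a 0.46. Cacna1a was 0.19 with the replicate block and 0.61 without acute controls 2, 3 and 5. Leaving out 1 library gave −0.19 to 0.15 for Cacna1a and −0.15 to 0.13 for Cacnb4. The GC offsets and the fit without old control 4 and old Gly-Low 1 were chosen after seeing the data.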
